A study of Bos taurus with 13 samples.

Results

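The glutathione peroxidase family was examined in the testes of 13 newborn bull calves. Its 8 members, GPX1 to GPX8, were taken as the probe sets whose platform annotation names that gene symbol alone. Each member had exactly 1 such probe set, so 8 of the 18087 genes with a probe set of their own were followed and none had to be chosen between probe sets. The dams were Angus cross cows with free individual access to a common vitamin-mineral mix holding 35 ppm of selenium, from 4 months before breeding through pregnancy. The form of that selenium was the only difference between the groups that the labels give. In the Mix group (4 calves) 50% came from each of the other 2 sources, in the OSe group (4 calves) all of it was organic, from Sel-Plex, and in the ISe group (5 calves) it was inorganic, as sodium selenite. All calves thus came from supplemented dams, and no unsupplemented group was part of the design. Of 24 cows, 8 per form, 13 sons gave tissue within 2 days of birth, and each testis was measured on its own Affymetrix array, whose probe sets each report 1 log2 expression value.

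Glutathione peroxidases reduce hydrogen peroxide and organic hydroperoxides, most of them at the expense of glutathione. In GPX1, GPX2, GPX3 and GPX4 the reacting residue is selenocysteine, which is built into the protein at a UGA codon and needs selenium. GPX5, GPX7 and GPX8 use cysteine in that place and need none. GPX6 carries selenocysteine in human and cysteine in mouse and rat. It was counted here with GPX5, GPX7 and GPX8, the bovine residue was not checked, and summaries of the 2 classes are also given with GPX6 on the other side. In other tissues GPX1 messenger RNA is known to decline in selenium shortage and GPX4 messenger RNA to hold.

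Some markers of the newborn testis were bright on these arrays. The Leydig cell hormone INSL3 averaged 13.4 and the Sertoli cell hormone AMH 12.5 on the log2 scale, and the germ cell protein DAZL averaged 11.1. Others were lower, such as the Sertoli marker NR0B1 at 7.08 and the germ cell markers NANOS2 at 7.07 and TEX101 at 5.84. Of 6 measured epididymis markers 5 averaged below the 25th percentile of all probe sets (6.26), as did 2 of 7 red cell markers, with the globin HBB at 8.38. The median of the array of OSe calf 2 was 7.74, against 7.61 to 7.65 on the other 12 arrays. Detection calls were not part of the table, so the level below which a probe set reports only background is unknown. Probe sets also differ in how strongly they bind their transcript, and a level of 1 member therefore does not rank its transcript against that of another.

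Among the selenocysteine members, GPX1, the cytosolic peroxidase found in most cells, averaged 12.72 over the 13 arrays, above 99.4% of all probe sets. It stood at 12.82, 12.79, 12.65 and 12.60 in the 4 Mix calves and at 12.64, 12.80, 12.50 and 12.84 in the 4 OSe calves. In the 5 ISe calves it stood at 12.72, 12.67, 12.84, 12.75 and 12.71. OSe held both the lowest and the highest calf, OSe calf 4 being level with ISe calf 3 at 2 decimals, and the groups overlapped. The whole range was 0.345 on the log2 scale, or 1.27-fold, the narrowest of the 8 members.

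GPX2, the peroxidase of gut epithelium, was dim, with a mean of 5.91 that only 20.2% of probe sets lay below. It was at 5.87, 5.68, 5.88 and 6.04 in Mix calves and at 5.80, 6.56, 5.48 and 6.07 in OSe calves. In ISe calves it was at 5.88, 5.82, 5.99, 6.01 and 5.78. The highest and the lowest value both came from OSe, the highest from the calf whose array had the raised median.

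GPX3 is the secreted peroxidase of plasma, made mainly in the kidney. Its mean of 7.97 lay above 55.8% of probe sets. It was at 7.81, 7.67, 7.96 and 7.69 in Mix calves and at 7.89, 8.06, 7.89 and 7.83 in OSe calves. In ISe calves it was at 8.30, 7.99, 8.24, 8.04 and 8.18. All 4 Mix calves lay below all 5 ISe calves, with a gap of 0.026 between the nearest 2, and 3 of 4 OSe calves lay below all ISe calves.

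GPX4, which reduces lipid hydroperoxides inside membranes and later forms part of the sperm mitochondrial capsule, averaged 10.54, above 92.2% of probe sets. It was at 10.46, 10.69, 10.44 and 10.68 in Mix calves and at 10.28, 10.35, 10.81 and 10.54 in OSe calves. In ISe calves it was at 10.38, 10.51, 10.60, 10.68 and 10.60. The 3 groups overlapped, and OSe again spanned the full range, from the lowest to the highest calf.

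Among the members counted as cysteine enzymes, GPX5, a secreted protein of the epididymis, was the dimmest, with a mean of 4.67 above 9% of probe sets. It was at 4.72, 4.66, 4.34 and 4.68 in Mix calves and at 4.05, 4.77, 4.51 and 4.56 in OSe calves. In ISe calves it was at 5.26, 4.47, 5.24, 4.12 and 5.29. Calves 1, 3 and 5 of ISe lay above every other calf, while the remaining 2 ISe calves lay among the other groups. GPX6, known from olfactory tissue, averaged 7.08, above 39.6% of probe sets. It ran from 6.69 to 7.34 in Mix, from 6.82 to 7.30 in OSe and from 6.67 to 7.63 in ISe, so the ISe range held both others.

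GPX7 and GPX8 sit in the endoplasmic reticulum, where they pass oxidizing power from peroxide to the enzymes that fold secreted proteins. GPX7 averaged 11.90, above 98.3% of probe sets, and ran from 11.59 to 12.00 in Mix, from 11.67 to 12.02 in OSe and from 11.85 to 12.07 in ISe. Of the 4 Mix calves 2 lay below all ISe calves, as did 2 of the 4 OSe calves. GPX8 averaged 10.34, above 90.4% of probe sets. It was at 10.48, 10.44, 10.35 and 10.11 in Mix calves and at 10.68, 10.56, 10.09 and 10.15 in OSe calves. In ISe calves it was at 10.27, 10.29, 10.91, 9.99 and 10.14, so the highest and the lowest calf of all 13 both belonged to ISe.

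**Figure D1:**
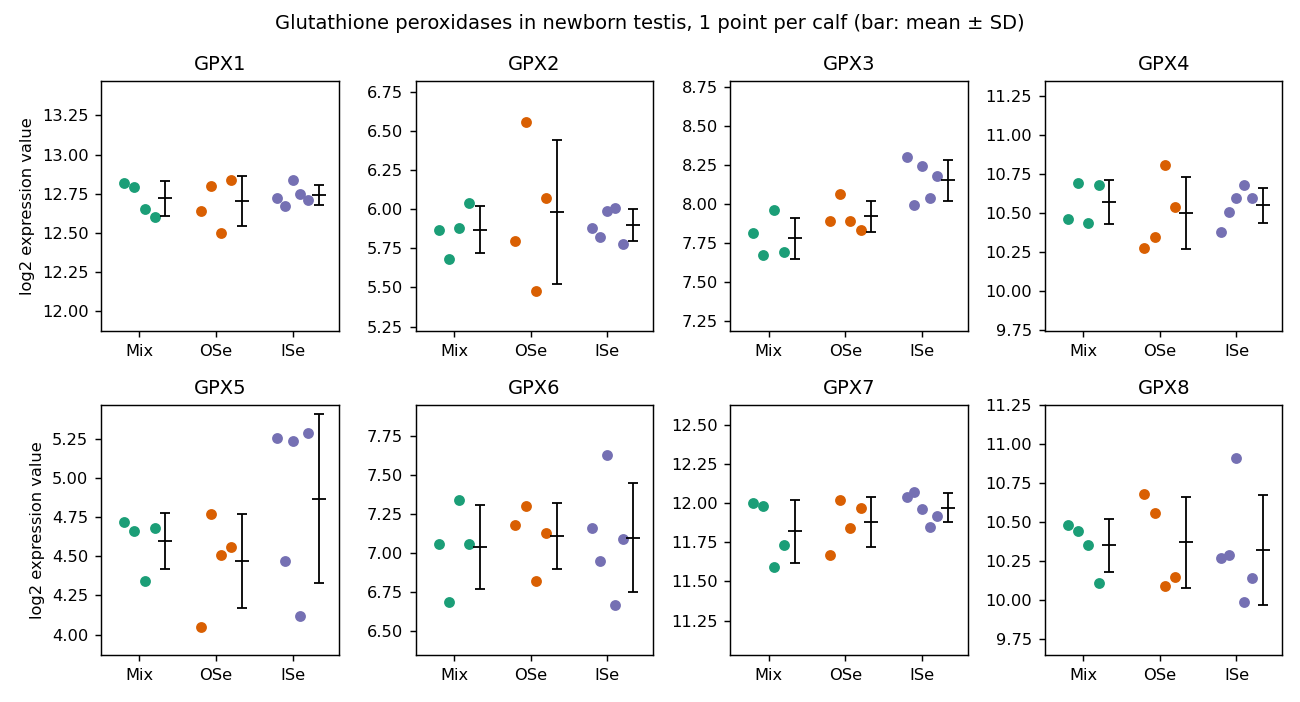
Log2 expression value of each glutathione peroxidase (y axis, every panel spanning the same 1.6 log2 units) in Mix, OSe and ISe calves (x axis). Each point is 1 calf, in the order of the animal numbers, and the bar beside it is the group mean ± SD (n = 4, 4 and 5). Only in the GPX3 panel do all Mix points lie below all ISe points.

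The classes overlapped in level. Means of the probe sets of GPX1 to GPX4 ran from 5.91 to 12.72, with a median of 9.25, and those of GPX5 to GPX8 ran from 4.67 to 11.90, with a median of 8.71. With GPX6 moved to the selenocysteine side the medians were 7.96 and 10.3, so their order turned with the place of this 1 gene. The median over all probe sets was 7.64. Each class held both bright and dim probe sets.

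Spread between calves was taken as the SD within groups, pooled over the 3 groups with 10 residual degrees of freedom. It was 0.112 on the log2 scale for GPX1, 0.123 for GPX3, 0.165 for GPX4 and 0.272 for GPX2. It was 0.152 for GPX7, 0.289 for GPX6, 0.289 for GPX8 and 0.394 for GPX5. The median was 0.144 for GPX1 to GPX4 and 0.289 for GPX5 to GPX8, and 0.165 against 0.289 with GPX6 on the selenocysteine side, beside 0.172 over all probe sets. No test was made between classes of so few genes.

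Dim probe sets were more variable over the whole array. With all probe sets split into 4 equal bands by mean level, the median SD was 0.219 in the lowest band, 0.177 and 0.166 in the middle bands and 0.138 in the highest. Read within its own band, GPX5 was more variable than 84.9% of probe sets, GPX6 than 82.2% and GPX2 than 66.5%. GPX8 was bright yet more variable than 93.6% of its band, while GPX4, GPX7 and GPX1 exceeded 66.6%, 58.7% and 30.8% of theirs. GPX3 exceeded 24.1%. The SD of GPX2 depended on OSe calves 2 and 3, being 0.18 without OSe calf 2 and 0.21 without OSe calf 3. That of GPX8 was 0.21 without ISe calf 3.

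**Figure D2:**
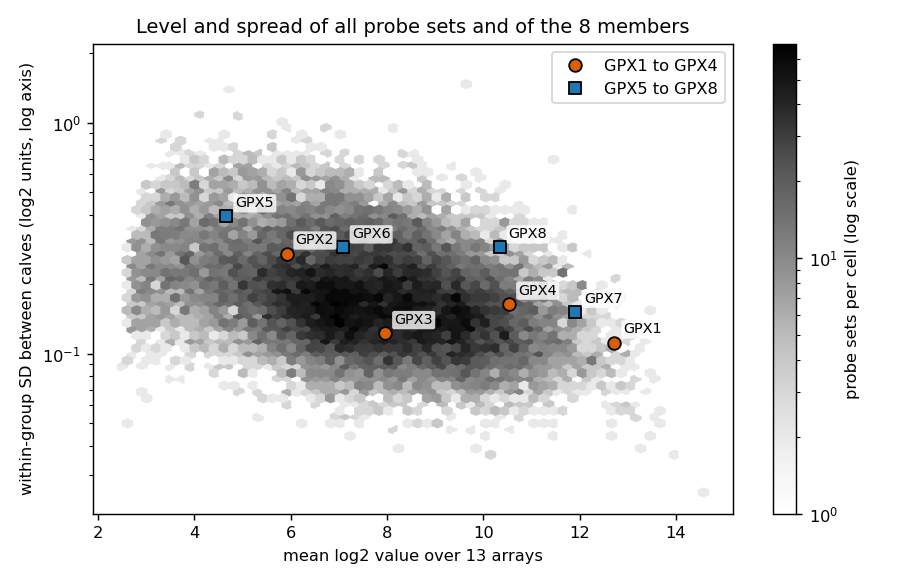
Mean log2 value over 13 arrays (x axis) against the within-group SD between calves (y axis, log scale) for all 26773 probe sets (grey, darker where more probe sets fall) and the 8 glutathione peroxidases (circles GPX1 to GPX4, squares GPX5 to GPX8). Spread narrows with level, GPX3 lies in the lower part of the cloud at its level, and GPX8 in the upper part.

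The spread also differed by group from member to member. OSe had the widest SD for GPX1, at 0.16 against 0.11 in Mix and 0.064 in ISe, for GPX2, at 0.46 against 0.15 in Mix and 0.10 in ISe, and for GPX4, at 0.23 against 0.14 in Mix and 0.11 in ISe. For GPX5 and GPX8 the widest SD was that of ISe, at 0.54 and 0.35. GPX3 had nearly equal SDs of 0.13, 0.10 and 0.13 in Mix, OSe and ISe. With 4 or 5 calves a group these are descriptions, and differences between SDs were not tested.

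Whether the selenium form was reflected in the messenger RNA of these enzymes was asked with a moderated F test over all 3 groups in limma, adjusted by the Benjamini-Hochberg method over all 26773 probe sets. None of the 8 members passed an adjusted p of 0.05, and 0% of all probe sets passed it. GPX3 had an unadjusted p of 0.00388 (adjusted p = 0.954), and the other 7 had unadjusted p-values from 0.244 for GPX5 to 0.955 for GPX8. Thus 1 of 8 members had an unadjusted p under 0.05, against 4.5% of all probe sets (1206). An unmoderated linear model gave 0 adjusted and 1112 unadjusted calls over the array.

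In Mix against ISe, GPX3 averaged 7.78 ± 0.13 in Mix and 8.15 ± 0.13 in ISe (SD, n = 4 and 5). The difference, Mix minus ISe, was -0.36 ± 0.089 (SE; 95% interval -0.56 to -0.17), a 1.29-fold lower mean in Mix, which exceeded the SD within either group. It did not pass the test over all probe sets (adjusted p = 0.967, unadjusted p = 0.00125). The exact two-sided permutation test over these 9 calves gave 0.0159, unadjusted, which is the smallest p it can give. GPX3 was the only one of 8 members whose groups did not overlap, against 1.02% of all probe sets, and the only one with an unadjusted p under 0.05, against 3.72%. The difference kept its sign under all 20 alternatives, from -0.42 without Mix calf 3 to -0.33 without ISe calf 1, with adjusted p-values from 0.768 to 0.9998. In whole testis, fewer cells that make a transcript and less transcript per cell cannot be told apart.

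The intervals of the other 7 members all held 0 in Mix against ISe. GPX7 averaged 11.82 ± 0.20 in Mix and 11.97 ± 0.093 in ISe, a difference of -0.15 (95% interval -0.37 to 0.08), and it was -0.066 without Mix calf 3. GPX5 averaged 4.60 ± 0.18 in Mix and 4.87 ± 0.54 in ISe, a difference of -0.28 (-0.78 to 0.23), the least precise of the 8, which was -0.46 without ISe calf 4 and -0.17 without ISe calf 5 and did not pass in either case. GPX1 averaged 12.72 ± 0.11 and 12.74 ± 0.064 in Mix and ISe, a difference of -0.02 (-0.20 to 0.16), so the interval reached at most a 1.15-fold lower or a 1.12-fold higher level in Mix. GPX4 averaged 10.57 ± 0.14 and 10.55 ± 0.11 in Mix and ISe, a difference of 0.02 (-0.22 to 0.25). GPX2, GPX6 and GPX8 were at -0.03, -0.06 and 0.03, with intervals reaching 0.44 on the log2 scale below 0 and 0.41 above. In all 6 of 8 members lay lower in Mix, with a median of -0.048 beside 0.0047 over all probe sets, and 0 of 8 passed, against 0% of all probe sets (0 of 26773 in limma and in the unmoderated model, with 995 and 945 at an unadjusted p under 0.05).

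In OSe against ISe, GPX3 was the only member whose 95% interval did not hold 0, although the difference of GPX5 was larger. GPX3 averaged 7.92 ± 0.10 in OSe and 8.15 ± 0.13 in ISe (SD, n = 4 and 5), a difference of -0.23 ± 0.089 (SE; 95% interval -0.42 to -0.04), or 1.17-fold lower in OSe. It did not pass (adjusted p = 0.9999, unadjusted p = 0.0231, exact permutation p = 0.0476). The groups overlapped in the deposited values, since OSe calf 2 at 8.06 lay above ISe calves 2 and 4. After median centring, which removes the raised median of that array, the highest OSe calf was at 7.96 and the lowest ISe calf at 7.98, and after quantile normalization at 7.95 and 8.00, so the groups no longer overlapped. Looking at overlap under these settings was chosen after seeing the data. Such separation held for 222 and 231 of all 26773 probe sets under them, and for 199 (0.743%, and 0 of 8 members) in the deposited values. The 2 comparisons with ISe share the same 5 ISe calves.

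GPX5 averaged 4.47 ± 0.30 in OSe and 4.87 ± 0.54 in ISe, a difference of -0.40 (95% interval -0.91 to 0.10) that lay within the range of ISe calves. It went to -0.59 without ISe calf 4 and to -0.26 without OSe calf 1. Among 6 measured epididymis markers of 12 listed, the secreted protein RNASE10 came first by F test, at 4.37 ± 0.27 in Mix, 4.20 ± 0.14 in OSe and 4.64 ± 0.27 in ISe (F test adjusted p = 0.954), followed by CRISP1 at 4.70 ± 0.14, 4.63 ± 0.065 and 4.56 ± 0.06 and DEFB123 at 6.15 ± 0.23, 5.77 ± 0.23 and 6.19 ± 0.74 in the same groups. The mean of the 6 epididymis markers ran from 5.33 to 5.45 in Mix calves, from 5.19 to 5.42 in OSe calves and from 5.31 to 5.64 in ISe calves. The part of epididymal tissue in the GPX5 values was not tested.

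GPX1 averaged 12.70 ± 0.16 in OSe and 12.74 ± 0.064 in ISe, a difference of -0.04 (95% interval -0.22 to 0.14), and GPX4 10.50 ± 0.23 in OSe and 10.55 ± 0.11 in ISe, a difference of -0.06 (-0.29 to 0.18). GPX7 differed by -0.09 (-0.31 to 0.13), and by -0.022 without OSe calf 1 and -0.14 without OSe calf 2. GPX2 differed by 0.08 (-0.28 to 0.44), GPX8 by 0.05 (-0.33 to 0.43) and GPX6 by 0.01 (-0.37 to 0.39). The intervals of GPX1, GPX4 and GPX7 reached at most 1.17-fold, 1.23-fold and 1.24-fold lower means in OSe, while that of GPX5 reached 1.88-fold lower. In all 5 of 8 members lay lower in OSe, with a median of -0.05 beside 0.024 over all probe sets, of which 59.5% lay higher. None of the 8 passed, against 0% of all probe sets, and 1 had an unadjusted p under 0.05, against 2.62% (701 in limma and 679 in the unmoderated model, each with 0 adjusted calls).

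In Mix against OSe no member stood out. GPX3 averaged 7.78 ± 0.13 in Mix and 7.92 ± 0.10 in OSe, a difference of -0.13 ± 0.094 (SE; 95% interval -0.34 to 0.07), with 3 of 4 Mix calves below all OSe calves (adjusted p = 0.669, exact permutation p = 0.171). It was -0.087 without OSe calf 2 and -0.19 without Mix calf 3. The difference was 0.02 for GPX1 (-0.17 to 0.21), 0.07 for GPX4 (-0.18 to 0.32; 0.0023 without OSe calf 1 and 0.18 without OSe calf 3) and -0.11 for GPX2 (-0.49 to 0.27). It was 0.13 for GPX5 (-0.41 to 0.66), -0.07 for GPX6 (-0.47 to 0.33), -0.05 for GPX7 (-0.29 to 0.18) and -0.03 for GPX8 (-0.43 to 0.38). The count was 5 of 8 lower in Mix, with a median of -0.04 beside -0.018 over all probe sets. None passed, against 0% of all probe sets, 0 of 8 had an unadjusted p under 0.05, against 8.53% (2283 in limma and 2148 in the unmoderated model), and 0 of 8 had groups that did not overlap, against 4.24%.

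The order of the group means was thus Mix, OSe, ISe from low to high for GPX3 and for GPX7. In GPX3 neither Mix and OSe nor any other neighbouring pair passed the test, and in GPX7 every group overlapped every other. The classes did not separate by group either. In Mix against ISe the median difference was -0.026 for GPX1 to GPX4 and -0.10 for GPX5 to GPX8, with 3 of 4 lower in each, and it was -0.031 and -0.15 with GPX6 on the selenocysteine side. In OSe against ISe the class medians were -0.05 and -0.043, and -0.043 and -0.092 with GPX6 moved, so their order turned. In Mix against OSe they were -0.045 and -0.04, and -0.07 and -0.025 with GPX6 moved.

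**Figure D3:**
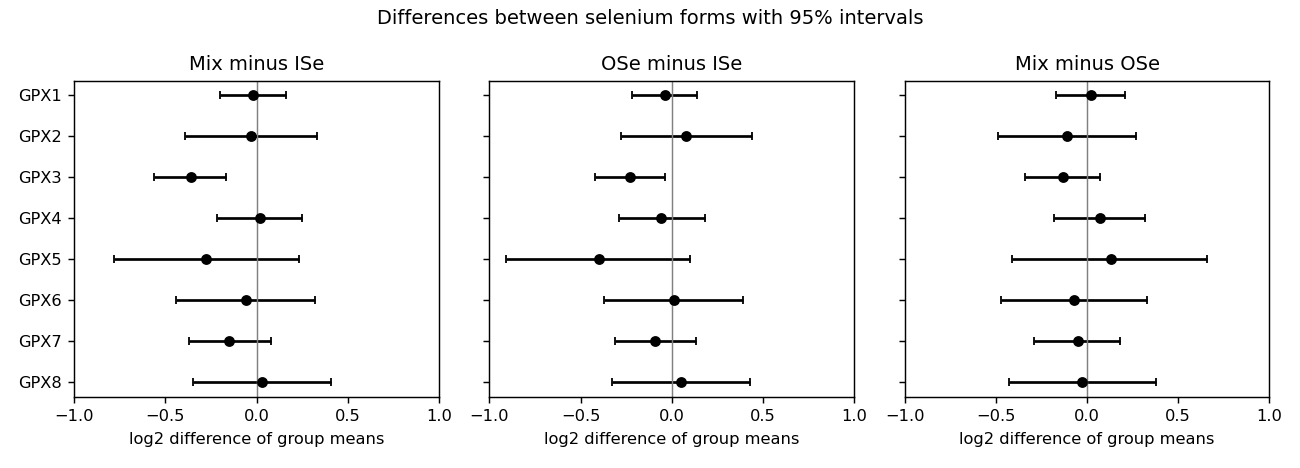
Difference of group means on the log2 scale (x axis) for each glutathione peroxidase (y axis) in Mix minus ISe, OSe minus ISe and Mix minus OSe, with points at the estimate and bars for the 95% interval from the fit over all probe sets. The GPX3 interval lies below 0 in both comparisons with ISe, and every other interval crosses 0. No p-value passed after adjustment.

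The members did not move as a block from calf to calf. Deviations from the group means were correlated over the 13 calves for all 28 pairs, with two-sided permutation tests adjusted over the 28. The permutations treated the 13 deviations as free, although removing the group means left 10 degrees of freedom. These permutation p-values therefore tend to be too small. Pearson's r ran from -0.53 to 0.70, with 20 pairs positive and 8 negative, and 0 pairs passed by r (lowest adjusted p = 0.165). The pair with the highest r was GPX3 and GPX6 (r = 0.70, permutation p = 0.00696, adjusted 0.165; Spearman's rho = 0.81, permutation p = 0.00122, adjusted 0.0342). This pair alone passed by rho, a pass left uncertain by that tendency. Its r was 0.69 without the 2 calves farthest from the median of GPX3, and 0.47 when group means were kept. The next highest r, that of GPX6 and GPX8 (r = 0.67, permutation p = 0.0118, adjusted 0.165), was 0.28 without ISe calves 3 and 4. The rho of GPX6 and GPX8 was 0.70 (permutation p = 0.00989, adjusted 0.0923). That of GPX4 and GPX6 was -0.75 (permutation p = 0.00445, adjusted 0.0623).

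The r of GPX4 was negative with 6 of the other 7 members, at -0.53 with GPX6, -0.52 with GPX3 and -0.50 with GPX8, and none of these passed (adjusted permutation p = 0.324 for each). Without the 2 calves farthest from the median of the first-numbered gene of a pair these became -0.46, -0.35 and -0.29. With GPX5 the r of GPX4 was -0.012. By the same rule of leaving out calves it turned from -0.41 to 0.36 with GPX2, without OSe calves 2 and 3. With GPX1 it turned from -0.30 to 0.016, without OSe calves 3 and 4. GPX1 and GPX7 had an r of 0.55 and a rho of 0.57 (adjusted permutation p = 0.324 and 0.221), which did not pass. The ER pair GPX7 and GPX8 had an r of 0.12.

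**Figure D4:**
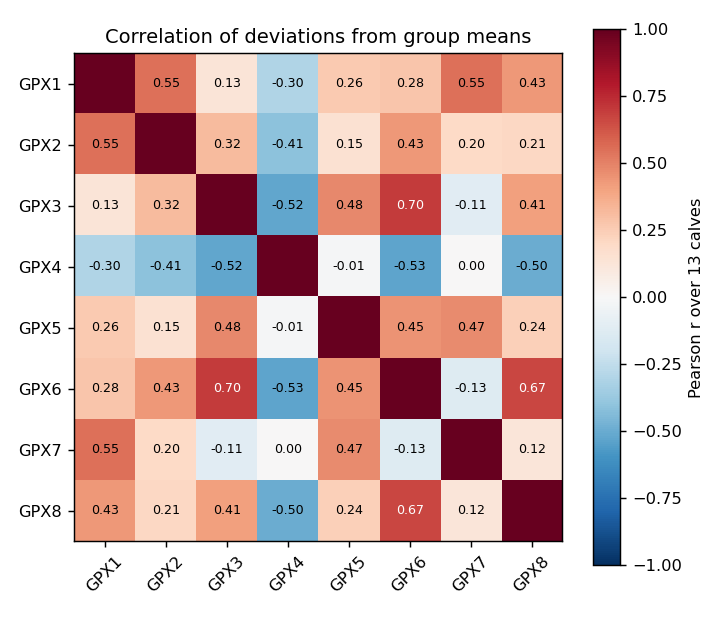
Pearson's r between the members' deviations from their group means over 13 calves (rows and columns are the 8 members, colour scale from -1 to 1, diagonal set to 1). GPX4 has negative values with most members, and the highest value off the diagonal is 0.70 for GPX3 with GPX6.

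The genes whose values over the 13 arrays were most like those of a member were looked up among 14310 other genes for the 5 members above the median level, as a description without p-values, since the first of so many is high by selection. For GPX1 they were EMP2, a membrane protein (r = 0.91, rho = 0.89), and the collagen VI chains COL6A1 (r = 0.90, rho = 0.85) and COL6A2 (r = 0.88, rho = 0.88). For GPX3 they were the kinase CAMK1D (r = 0.83, rho = 0.81), the transcription factor HBP1 (r = 0.83, rho = 0.90) and MTRFR, a mitochondrial release factor (r = 0.82, rho = 0.84). With group means removed these became 0.77, 0.86 and 0.67. For GPX4 they were the proteasome subunit PSMB1 (r = 0.86, rho = 0.77) and the RNA-binding proteins HNRNPK (r = 0.83, rho = 0.82) and SRSF9 (r = 0.83, rho = 0.85).

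For GPX7 the closest were the calcium-binding protein S100A16 (r = 0.92, rho = 0.82), the adaptor SH3PXD2B (r = 0.90, rho = 0.85) and ABHD11 (r = 0.90, rho = 0.80). For GPX8 they were VAMP2, a vesicle fusion protein (r = 0.82, rho = 0.84), ARHGAP28 (r = 0.82, rho = 0.84) and DEPP1 (r = 0.82, rho = 0.88). No gene was named for more than 1 member. All arrays share their processing, and the points include the array with the raised median.

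Genes that work beside the peroxidases did not pass the test in any of the 3 comparisons. Of the 20 other selenoproteins 6 lay higher and 14 lower in Mix than in ISe, with a median of -0.057. In OSe against ISe 12 lay higher and 8 lower, with a median of 0.025, and in Mix against OSe 4 and 16, with a median of -0.082. Over all probe sets 51.5% lay higher in Mix than in ISe, 59.5% in OSe than in ISe, the array of OSe calf 2 having the raised median, and 45.3% in Mix than in OSe, with medians of 0.0047, 0.024 and -0.018. First by F test was the thioredoxin reductase TXNRD1, at 9.16 ± 0.047 in Mix, 9.31 ± 0.12 in OSe and 9.27 ± 0.06 in ISe, followed by SELENON, a protein of the endoplasmic reticulum, at 9.84 ± 0.15, 10.03 ± 0.14 and 10.04 ± 0.16 in the same groups (adjusted p = 0.954 each). The third was the deiodinase DIO3, which inactivates thyroid hormone. DIO3 was at 7.36 ± 0.40 in Mix, 7.64 ± 0.49 in OSe and 7.84 ± 0.36 in ISe. Of 13 measured genes of selenium uptake and selenocysteine synthesis 9 lay higher and 4 lower in Mix than in ISe, with a median of 0.034, 8 and 5 in OSe than in ISe (0.059) and 7 and 6 in Mix than in OSe (0.025), and none had an unadjusted p under 0.05. First were the uptake receptor LRP2, at 6.50 ± 0.32 in Mix, 6.15 ± 0.35 in OSe and 6.23 ± 0.30 in ISe, SEPHS1, at 10.23 ± 0.074, 10.29 ± 0.08 and 10.36 ± 0.075, and the RNA-binding protein ELAVL1, at 11.36 ± 0.13, 11.29 ± 0.046 and 11.23 ± 0.097.

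Of 17 measured genes that make or reduce glutathione, the co-substrate of most of these peroxidases, 14 lay higher and 3 lower in OSe than in ISe, with a median of 0.059, beside 59.5% and 0.024 over all probe sets. In Mix against ISe the split was 9 and 8, with a median of 0.032, and in Mix against OSe 5 and 12, with a median of -0.084. Glutathione synthetase, GSS, was at 7.89 ± 0.044 in Mix, 8.10 ± 0.081 in OSe and 7.82 ± 0.05 in ISe (F test unadjusted p = 0.00229, adjusted p = 0.954), so its mean was highest in OSe, where that of GPX3 was intermediate. TALDO1 of the pentose phosphate pathway was at 8.61 ± 0.13, 8.70 ± 0.062 and 8.51 ± 0.087 and IDH2, a mitochondrial source of NADPH, at 9.95 ± 0.11, 9.82 ± 0.024 and 9.92 ± 0.071 in Mix, OSe and ISe. Of 8 measured catalase, peroxiredoxin and thioredoxin genes 3 lay higher and 5 lower in Mix than in ISe, with a median of -0.018, 6 and 2 in OSe than in ISe (0.045) and 2 and 6 in Mix than in OSe (-0.046). Catalase itself, CAT, was at 11.03 ± 0.18 in Mix, 11.25 ± 0.11 in OSe and 11.21 ± 0.17 in ISe, and the peroxiredoxins PRDX3 and PRDX5 averaged 10.59 and 7.7 in Mix, 10.79 and 7.83 in OSe and 10.68 and 7.82 in ISe.

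Of 10 measured genes of lipid peroxidation and ferroptosis, the setting of GPX4, 7 lay higher and 3 lower in Mix than in ISe, with a median of 0.075, 6 and 4 in OSe than in ISe (0.011) and 7 and 3 in Mix than in OSe (0.059). ALOX15, a lipoxygenase, came first by F test, at 6.21 ± 0.24 in Mix, 6.01 ± 0.14 in OSe and 6.01 ± 0.076 in ISe (unadjusted p = 0.158). DHODH and LPCAT3 followed, at 8.18 and 10.62 in Mix, 8.02 and 10.46 in OSe and 8.07 and 10.56 in ISe. Of 8 measured genes of oxidative folding, the setting of GPX7 and GPX8, 3 lay higher and 5 lower in Mix than in ISe, with a median of -0.064, 6 and 2 in OSe than in ISe (0.041) and 1 and 7 in Mix than in OSe (-0.084). The oxidase ERO1B was at 8.81 ± 0.062 in Mix, 9.02 ± 0.18 in OSe and 8.97 ± 0.15 in ISe (unadjusted p = 0.127). ERO1A and PDIA3 followed, at 8.09 and 12.42 in Mix, 8.28 and 12.55 in OSe and 8.07 and 12.51 in ISe. Members of these 2 lists had adjusted p-values of 0.954 or more in the F test.

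In these calves the means of germ cell markers lay mostly higher in Mix, though no marker passed the test. All markers were measured in the same calves, so counts of markers are descriptions and not independent observations. Of 9 gonocyte markers 8 lay higher in Mix than in ISe, with a median of 0.30, beside 51.5% and 0.0047 over all probe sets. In OSe against ISe 0 of 9 lay higher, with a median of -0.14, beside 59.5% and 0.024. In Mix against OSe 9 of 9 lay higher, with a median of 0.47, beside 45.3% and -0.018. An unadjusted p under 0.05 in limma was found for 2, 0 and 4 of 9 in these comparisons. Over all probe sets the shares were 3.72%, 2.62% and 8.53%. The mean level of these 9 markers ran from 8.98 to 9.39 in Mix calves. It ran from 8.56 to 8.97 in OSe calves and from 8.52 to 9.13 in ISe calves. First by F test were the germline stem cell factor ZBTB16, at 10.86 ± 0.27 in Mix, 10.38 ± 0.20 in OSe and 10.47 ± 0.23 in ISe, the GDNF receptor GFRA1, at 8.40 ± 0.31, 7.88 ± 0.25 and 8.00 ± 0.30, and DND1, at 8.96 ± 0.33, 8.49 ± 0.23 and 8.63 ± 0.33. In mean level of the 9 gonocyte markers every OSe calf lay within the range of ISe calves. The part of germ cells in the GPX3 values was not tested.

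The mean level of the 10 Sertoli markers, led by SOX9, NR0B1 and INHA, ran from 9.53 to 9.70 in Mix, from 9.54 to 9.81 in OSe and from 9.56 to 9.66 in ISe. That of the 6 Leydig markers, led by HSD3B1, NR5A1 and CYP11A1, ran from 10.65 to 11.23, from 10.51 to 11.60 and from 10.70 to 11.00 in the same groups. Endothelial markers (5 of 5 measured, led by TEK, KDR and PECAM1) ran from 8.82 to 8.96 in Mix, from 8.90 to 9.41 in OSe and from 8.87 to 9.10 in ISe. Macrophage markers (5 of 6, led by CD163, AIF1 and CD14) ran from 8.38 to 8.65, from 8.03 to 8.55 and from 7.88 to 8.54. Red cell markers (7 of 9, led by HBM, HBG and AHSP) ran from 6.75 to 6.98 in Mix, from 6.53 to 7.30 in OSe and from 6.52 to 7.56 in ISe. Peritubular myoid markers (4 of 5, led by DES, MYH11 and TAGLN) ran from 8.38 to 8.87, from 8.45 to 9 and from 8.41 to 8.91. Markers higher in Mix than in ISe numbered 5 (Sertoli), 5 (Leydig), 2 (endothelial), 4 (macrophage), 4 (red cell) and 3 (myoid). In the same order 9, 5, 5, 3, 2 and 2 lay higher in OSe than in ISe. In Mix against OSe 2, 2, 0, 4, 5 and 2 lay higher. Over all probe sets 51.5%, 59.5% and 45.3% lay higher in these comparisons. No marker had an adjusted F test p below 0.954. The part of these cell types in the GPX3 values was not tested.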

How the data were processed

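The deposited values, made by the authors, are log2 expression values, 1 for each of 26773 probe sets on each of 13 arrays, and run from 2.07 to 14.6. No source names the scale, which was inferred from that range. Per the labels' protocols, biotinylated cRNA was made from Trizol-extracted RNA with oligo(dT) priming. GCOS 1.2 and Partek 6.4 are named in the submitters' processing notes without a role. Background correction, probe summary, normalization and centring are not given in the sources used here.

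Arrays were grouped by title, each array being a different calf, and precision is set by how many there are. All arrays and probe sets entered 1 limma fit (version 3.58.1, R 4.3.3) with a mean per group and moderated variances (prior degrees of freedom 3.28). Tests were two-sided, with Benjamini-Hochberg adjustment over all probe sets and a threshold of 0.05. The 95% intervals come from that fit and are unadjusted. Correlations used 100000 permutations. The fit was tested on simulated data, drawn at random from each probe set's mean and SD. Planted changes of 0.5 on the log2 scale were recovered in 34.3% (OSe minus ISe), 43.3% (Mix minus ISe) and 41.8% (Mix minus OSe). Changes of 1 were recovered in 95.5%, 88.1% and 94.0%, and no change below 0.5 was planted. Each simulation held 67 changes of 0.5, 67 of 1 and 66 of 2 together, and gave 6, 8 and 7 false calls. So many planted changes make the adjustment less strict than in the real data, where no probe set passed. The shares therefore do not give the chance of finding a change in a single member. Alternatives were quantile normalization, median centring, array weights, a variance trend, an unmoderated model, a filter on dim probe sets, a block for animal numbers and leaving out each calf.

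Members, gene lists, tests and the rule for named genes (all 8 members, the first 3 of a list by F test, the 3 genes most like each member above the median level) were chosen with earlier results of these data known. All 8 members' gene identifiers matched the reference gene table (ARS-UCD2.0) under the same symbol. The array files name no genome build, so no coordinates are given, and sequences were not used here.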

Additional observations from a re-analysis of the deposited data

Results flagged for a closer look

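Of 24 groups of values (8 members in 3 groups), 1 held a calf set apart from its group. GPX5 in Mix calf 3 was at 4.34, with the nearest Mix calf at 4.66 and the highest at 4.72, so the gap was 0.851 of the group's range, above Dixon's 95% critical value for 4 samples. Chance flags about 1 in 20 groups, or 1.2 of these 24. GPX5 was the dimmest member, and the cause was not tested.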

How the results depend on the processing

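No member passed under any of the alternatives run (lowest adjusted p 0.597, GPX2 in Mix minus OSe without OSe calf 3). Of 24 differences (8 members, 3 comparisons) 8 kept their sign throughout, the 3 of GPX3 among them, and 16 turned at least once. Array weights turned GPX2 to -0.023 in OSe minus ISe and to 0.0099 in Mix minus OSe. GPX6 in OSe minus ISe became -0.0052 after quantile normalization and -0.019 after median centring, and GPX8 in Mix minus OSe became 0.024 after quantile normalization. Animal numbers name different calves, and of 12 same-numbered pairs 1 had a correlation of deviations above 0.1, so they were not taken as pairs. With the replicate block, GPX8 in Mix minus ISe became -0.017, and GPX3 stood at -0.36 in Mix minus ISe and the count of calls stayed 0. Leaving out each calf in turn, OSe minus ISe ranged from -0.091 to 0.024 for GPX1, from -0.11 to 0.25 for GPX2, from -0.16 to 0.015 for GPX4, from -0.1 to 0.14 for GPX6, from -0.05 to 0.2 for GPX8. Of the differences that kept their sign, GPX5 and GPX7 ranged from -0.59 to -0.26 and from -0.14 to -0.022 in OSe minus ISe, GPX5 and GPX7 from -0.46 to -0.17 and from -0.2 to -0.066 in Mix minus ISe, and GPX4 from 0.0023 to 0.18 in Mix minus OSe. Leaving out each calf in turn, Mix minus ISe ranged from -0.057 to 0.017 for GPX1, from -0.09 to 0.033 for GPX2, from -0.025 to 0.06 for GPX4, from -0.17 to 0.068 for GPX6, from -0.055 to 0.18 for GPX8. Leaving out each calf in turn, Mix minus OSe ranged from -0.045 to 0.07 for GPX1, from -0.28 to 0.084 for GPX2, from -0.012 to 0.23 for GPX5, from -0.17 to 0.046 for GPX6, from -0.12 to 0.026 for GPX7, from -0.12 to 0.078 for GPX8. Without OSe calf 3, 1 probe set was called in the F test and 1 in Mix minus OSe, neither a member, and leaving out any other calf gave 0. The cause of these turns was not tested, and all lay within the intervals given. Each member had 1 probe set, so other probe sets of a gene were not run. Signal over background could not be computed, which limits what can be said of GPX2 and GPX5, both below the 25th percentile.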
